A study of Bos taurus with 12 samples.

Results

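Interferon-stimulated genes are the genes that a cell switches on when an interferon binds its receptor. Type I interferons signal through the receptor chains IFNAR1 and IFNAR2 to transcription factors that include STAT2 and IRF9, and among their targets are proteins that trap viral particles, block viral RNA synthesis or tag other proteins with the ubiquitin-like ISG15. In cattle the same genes are known in the uterus as the response to interferon tau, which the elongating conceptus secretes in early pregnancy. CXCL10 stands somewhat apart, since it is a secreted chemokine that draws T cells and NK cells through the receptor CXCR3 and is induced above all by interferon gamma.

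Described here are 9 such genes, MX1, MX2, RSAD2, ISG15, IFI6, IFI44, IFI44L, IFIT2 and CXCL10, in bovine endometrium that had seen no embryo. They were chosen by name, with earlier results of the same arrays known, and every probe set that the platform annotation assigns to one of these symbols was taken. This gave 12 of 24016 probe sets, or 9 of 9155 annotated genes, with 4 probe sets for IFI44 and 1 for each other gene. The first 8 genes, with 11 probe sets, are called the antiviral genes below, and CXCL10 was set against them. Because the genes were picked with their values in view, their own differences are given as a description, without a test.

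The tissue was brushed from the uterine wall of cyclic Simmental heifers in the cycle before a transfer of in vitro-produced blastocysts, and sorted afterwards by whether the transfer in the following cycle gave a pregnancy (high receptive, HR) or not (low receptive, LR). The groups were HR7 and LR7, sampled on day 7 of the estrous cycle, and HR3 and LR3, sampled on day 3, all untreated apart from estrous synchronization. Each group had 3 arrays, and each array held 1 pool of RNA from 5 brush samples, so that differences between single animals are not visible. The sources used here do not say whether the pools of the 2 days hold the same heifers, and the spread given below is that between pools. A brush sample holds several cell types, and fewer cells of a type and less RNA per cell cannot be told apart in it.

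Values are the deposited log2 signals of the PLIER method, on which 1 unit is a doubling. Array medians ranged from 6.63 to 6.77. Of 14 markers of uterine epithelium, 12 exceeded the median of each of the 12 arrays. Of 17 conceptus markers, 13 lay below it on every array. The interferon tau gene IFNT2 averaged 6.37 ± 0.04 in HR7, 6.23 ± 0.21 in LR7, 6.47 ± 0.28 in HR3 and 6.42 ± 0.18 in LR3 (SD, n = 3 pools each). IFNT2 was not among the 13, since its highest HR3 pool read 6.79, where the HR3 medians were 6.69 to 6.77. PAG5 averaged 7.10 ± 0.05 in HR7, 6.83 ± 0.18 in LR7, 6.96 ± 0.16 in HR3 and 6.92 ± 0.11 in LR3. It lay above the array median in all pools of HR7, HR3 and LR3. The only conceptus marker above the array median throughout was ELF5. Another, SSLP1, was bright on day 7. It averaged 9.66 ± 0.35 in HR7 and 9.25 ± 1.16 in LR7, against 6.32 ± 0.53 in HR3 and 7.03 ± 1.48 in LR3. In LR its pools of the 2 days overlapped. Levels of different probe sets are not compared, because probe sets differ in their response. No member value stood at the floor of 0. MX1, ISG15 and IFI6 exceeded the array median on all 12 arrays and CXCL10 on 11. MX2, IFIT2 and 1 probe set of IFI44 lay below the median on all 12, where signals are hard to tell from background.

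From day 3 to day 7 the members parted. Averaged over HR and LR, 7 of the 8 antiviral genes were higher on day 7, most of all ISG15 (3.43-fold) and IFI44 (2.64-fold). CXCL10 was 3.85-fold lower and the antiviral gene IFIT2 1.61-fold lower. The smallest of the 7 differences was that of IFI6, 0.28 in log2 signal (SE 0.21), and in HR alone 6 of the 8 were higher. Among all 7339 tested probe sets, 3423 were higher on day 7 by the average over HR and LR. Between HR and LR on day 7, MX1 and IFI6 were higher in LR7 and RSAD2 was higher in HR7, each without overlap of the pools, and on day 3 the largest difference by gene was that of CXCL10, whose pools overlapped.

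**Figure D1:**
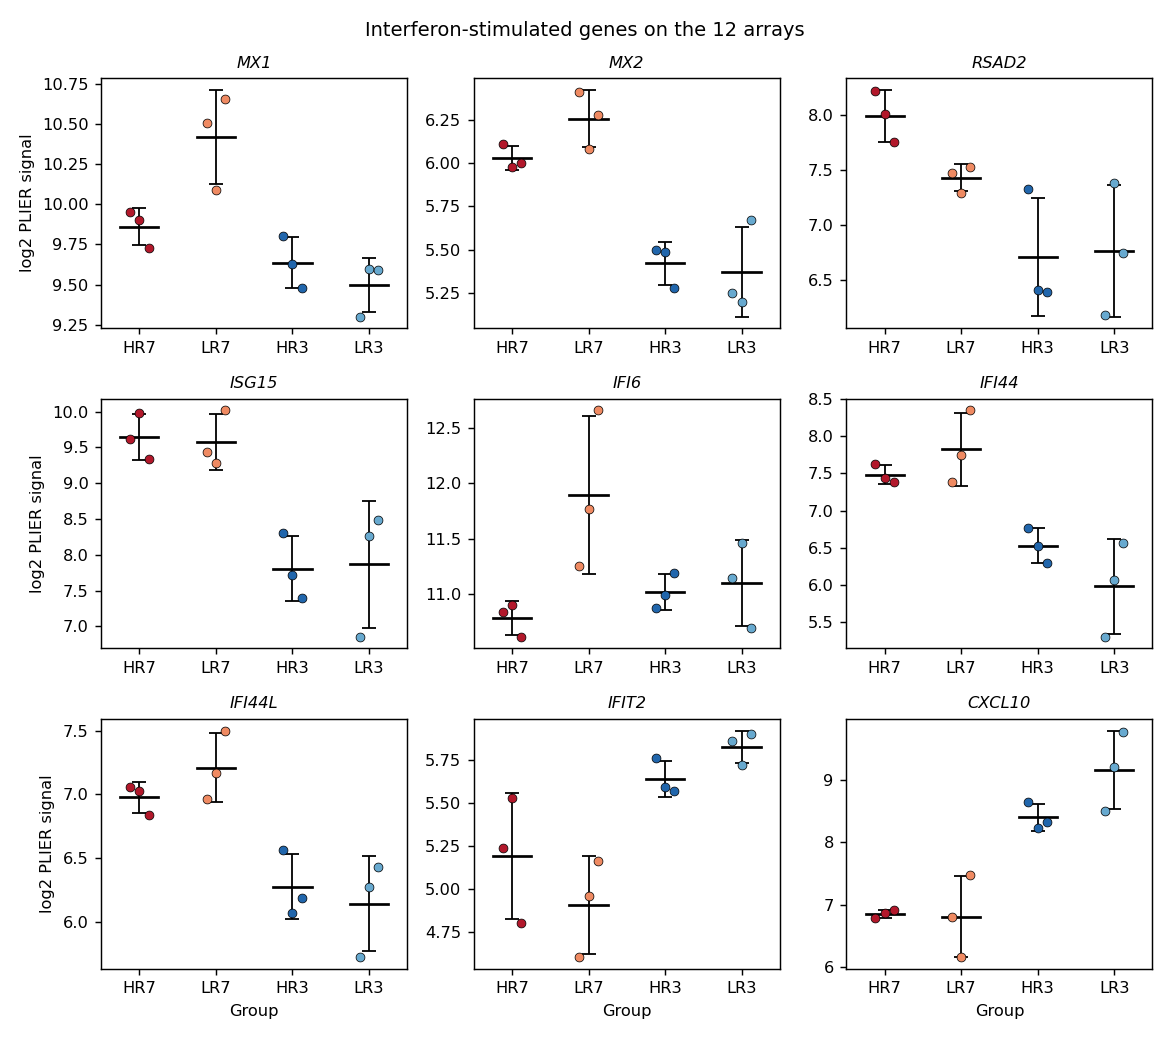
Log2 PLIER signal (vertical axis, scaled to each gene) of the 9 genes in HR7, LR7, HR3 and LR3; points are the 3 pools of a group in order of pool number, bars the mean and the SD. IFI44 is shown by its brightest probe set. All 6 day 7 pools lie above all 6 day 3 pools for MX2, ISG15, IFI44 and IFI44L, and below them for IFIT2 and CXCL10.

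The MX proteins are dynamin-like GTPases that bind the nucleocapsids of RNA viruses. MX1 signals were 9.95, 9.90 and 9.73 in HR7, 10.51, 10.09 and 10.66 in LR7, 9.80, 9.63 and 9.48 in HR3, and 9.30, 9.60 and 9.59 in LR3. The LR7 pools were the 3 highest of all 12, and HR3 overlapped both HR7 and LR3. Their means were 9.86 ± 0.12 in HR7, 10.42 ± 0.30 in LR7, 9.64 ± 0.16 in HR3 and 9.50 ± 0.17 in LR3 (SD, n = 3 each). Day 7 minus day 3 was therefore 0.92 in LR and 0.22 in HR on the log2 scale (SE 0.17 for each), and only in LR did the pools of the 2 days not overlap.

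MX2 lies next to MX1 in the bovine genome. Its signals were 6.11, 5.98 and 6.0 in HR7, 6.41, 6.08 and 6.28 in LR7, 5.50, 5.49 and 5.28 in HR3, and 5.25, 5.20 and 5.67 in LR3. Both day 7 groups lay above both day 3 groups, by 0.61 in HR and 0.88 in LR (SE 0.14 for each). At each day HR and LR overlapped. All values lay below the array median, so that the size of these differences is less sure than for MX1.

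RSAD2 encodes viperin, an enzyme that makes a nucleotide analogue which ends viral RNA chains. Its signals were 8.22, 8.01 and 7.75 in HR7, 7.47, 7.29 and 7.53 in LR7, 7.33, 6.41 and 6.39 in HR3, and 6.18, 7.38 and 6.74 in LR3. HR7 was above every other pool, and the day 3 groups were spread widely, with SDs of 0.54 in HR3 and 0.60 in LR3. Day 7 minus day 3 was 1.28 in HR and 0.66 in LR (SE 0.30 for each), and in LR the pools of the 2 days overlapped. Without pool 1 of LR3 the difference in LR was 0.37.

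ISG15 is joined to other proteins during the interferon response and is also released from cells. Its signals were 9.62, 9.98 and 9.34 in HR7, 9.44, 9.28 and 10.02 in LR7, 8.30, 7.72 and 7.40 in HR3, and 6.85, 8.26 and 8.49 in LR3. The 2 days were separated by a gap in both classes, and within a day HR and LR overlapped. Group means were 9.65 ± 0.32 in HR7, 9.58 ± 0.39 in LR7, 7.81 ± 0.46 in HR3 and 7.87 ± 0.89 in LR3. The day 7 level was 3.58-fold that of day 3 in HR and 3.28-fold in LR, or 1.84 and 1.71 on the log2 scale (SE 0.39 for each).

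IFI6 is a small membrane protein that limits cell death and, in human cells, the replication of flaviviruses. Its signals were 10.84, 10.90 and 10.61 in HR7, 11.25, 11.77 and 12.66 in LR7, 10.87, 10.99 and 11.19 in HR3, and 11.14, 11.46 and 10.69 in LR3. Only LR7 stood out, by its pools 2 and 3. Day 7 minus day 3 was -0.23 in HR, where the pools overlapped, and 0.80 in LR (SE 0.30 for each), where they overlapped as well. Without pool 3 of LR7 the value for LR was 0.41.

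IFI44 and IFI44L are cytosolic proteins encoded side by side in the bovine genome. The brightest IFI44 probe set read 7.63, 7.44 and 7.38 in HR7, 7.38, 7.75 and 8.35 in LR7, 6.77, 6.53 and 6.29 in HR3, and 5.30, 6.07 and 6.57 in LR3. Both day 7 groups lay above both day 3 groups, by 0.95 in HR and 1.85 in LR (SE 0.30 for each), which is 1.94-fold and 3.60-fold. The other 3 probe sets of IFI44 were dimmer and gave 0.88 to 1.37 in HR and 1.81 to 1.95 in LR. For all 4, the 6 day 7 pools were the 6 highest, and the difference was larger in LR than in HR. The 4 probe sets read the same RNA and are not independent. They disagreed on HR3 minus LR3, which was 0.55 for the brightest, 0.07 for the third and 0.56 for the dimmest.

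**Figure D2:**
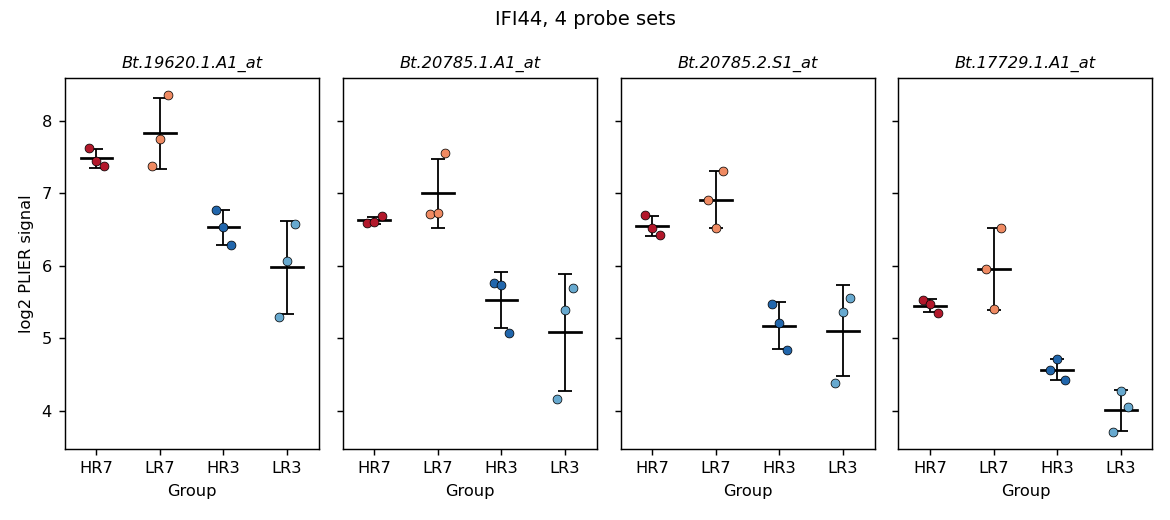
Log2 PLIER signal (shared vertical axis) of the 4 IFI44 probe sets in HR7, LR7, HR3 and LR3; points are pools, bars the mean and the SD of 3. Each probe set has its day 7 pools above its day 3 pools, with pool 3 of LR7 highest and pool 1 of LR3 lowest.

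IFI44L signals were 7.06, 7.03 and 6.84 in HR7, 6.96, 7.17 and 7.50 in LR7, 6.56, 6.07 and 6.19 in HR3, and 5.72, 6.27 and 6.43 in LR3. Again the 2 days did not overlap and the 2 classes did. The differences between the days were 0.70 in HR and 1.07 in LR (SE 0.21 for each).

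IFIT2 encodes a protein with tetratricopeptide repeats that binds RNA and restrains translation. It ran against the other antiviral genes, with signals of 5.24, 5.53 and 4.80 in HR7, 4.60, 4.96 and 5.16 in LR7, 5.76, 5.59 and 5.57 in HR3, and 5.86, 5.72 and 5.90 in LR3. All day 7 pools lay below all day 3 pools. Day 7 minus day 3 was -0.45 in HR and -0.92 in LR (SE 0.20 for each). These values are low, and IFIT2 lay below the array median on every array.

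CXCL10 gave the widest range of all 12 probe sets, 3.60 units from its lowest to its highest array. Its signals were 6.78, 6.87 and 6.91 in HR7, 6.80, 6.16 and 7.47 in LR7, 8.64, 8.23 and 8.33 in HR3, and 8.50, 9.21 and 9.76 in LR3. The day 3 pools were all above the day 7 pools, and on day 3 the LR pools reached higher than the HR pools. Group means were 6.85 ± 0.07 in HR7, 6.81 ± 0.66 in LR7, 8.40 ± 0.21 in HR3 and 9.16 ± 0.63 in LR3. CXCL10 was 2.92-fold lower in HR7 than in HR3 and 5.09-fold lower in LR7 than in LR3, or -1.55 and -2.35 on the log2 scale (SE 0.33 for each).

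Set beside the antiviral genes, CXCL10 had the sign opposite to their median in both classes. IFIT2 shared the sign of CXCL10 in both, and IFI6 did so in HR. In HR the median day difference of the 8 antiviral genes was 0.65, with a range of -0.45 to 1.84, against -1.55 for CXCL10. In LR their median was 0.90, with a range of -0.92 to 1.85, against -2.35 for CXCL10. The distance of CXCL10 from the antiviral median was thus -2.20 in HR and -3.25 in LR, and over both classes -2.76. The median over all 7339 tested probe sets was -0.08 for day 7 minus day 3 over both classes. CXCL10 lay below the lowest antiviral gene, IFIT2, in HR and in LR.

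**Figure D3:**
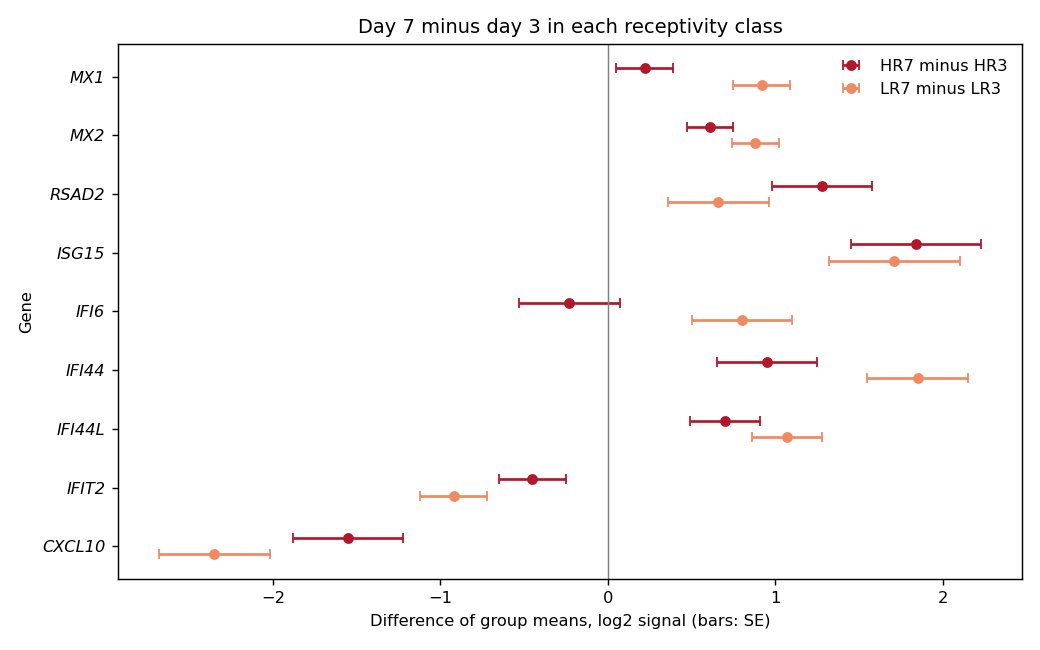
Day 7 minus day 3 in log2 signal (horizontal axis) for the 9 genes, in HR (HR7 minus HR3) and in LR (LR7 minus LR3); points are differences of means of 3 pools, bars the SE. CXCL10 lies at -1.55 in HR and -2.35 in LR, IFIT2 is the only antiviral gene below 0 in both, and ISG15 is at 1.84 in HR and 1.71 in LR.

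Many genes of the endometrium differed between the 2 days, and the counts of members are to be read against that. Between HR7 and HR3, 8 of the 12 member probe sets were higher and 2 lower without overlap of the pools, where 16.1% of all 24016 probe sets were higher and 18.6% lower in this way. Between LR7 and LR3 the members again gave 8 higher and 2 lower, against 14.6% and 15.7% of all. Across both classes together 7 were higher and 2 lower, against 7.24% and 7.08% of all. As the members were chosen with these contrasts known, nothing is read from their counts.

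2 arrays weighed on the antiviral genes. Pool 3 of LR7 was the highest of the 12 arrays for 8 of the 11 antiviral probe sets, and pool 1 of LR3 was the lowest for 8 of 11. Leaving both out, an alternative chosen after seeing the data, day 7 minus day 3 in LR was 0.98 for ISG15, 1.25 for the brightest IFI44 probe set, 0.71 for IFI44L, 0.71 for MX1, 0.81 for MX2, 0.43 for IFI6, 0.32 for RSAD2, -1.03 for IFIT2 and -3.0 for CXCL10. Every sign held, and CXCL10 moved further from 0. The arrays carried 4 spiked controls of target preparation. For 1 of them, dap, the 5' minus 3' signal was lower in LR3 and in pool 1 of HR3 than on the other arrays. The 5' minus 3' log2 signal of the dap transcript was -2.30, -1.77 and -1.84 in HR7, -1.50, -1.47 and -1.88 in LR7, -2.74, -1.39 and -1.32 in HR3, and -3.13, -2.66 and -2.86 in LR3. For thr, another spike, it was -3.52, -3.54 and -4.35 in LR3 and -3.56 in pool 1 of HR3. It was -3.85 in pool 3 of LR7 and -3.06 to -1.97 on the remaining arrays. For phe it was -0.36 to -0.46 in LR3, among the highest of the 12 arrays. For lys it was -1.48, -1.23 and -1.09 in LR3 and -1.43 to -0.99 in the other groups. For the bovine actin control, which reads RNA of the samples, it was -1.16 to -0.30 in HR7 and -1.53 to -0.62 in LR7, against -0.86 to 0.17 in HR3 and -0.62 to 0.55 in LR3, so that it tended lower on day 7 with overlap, and its part in the day differences was not tested. With the dap value as a covariate LR7 minus LR3 was 2.08 for ISG15, 2.16 for IFI44 and -2.06 for CXCL10. The part of dap was not tested beyond that fit.

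High and low receptive endometria were then compared at each day, which asks whether these genes were related to the outcome of the later transfer. On day 7, IFI6 was 2.16-fold higher in LR7 (HR7 minus LR7 -1.11, SE 0.30) and MX1 1.47-fold higher in LR7 (-0.56, SE 0.17), whereas RSAD2 was 1.48-fold higher in HR7 (0.56, SE 0.30). The IFI6 pools had an SD of 0.15 in HR7 and 0.71 in LR7, which the SE shared by all 4 groups does not show. For IFI6, MX1 and RSAD2 the pools did not overlap. The same held for the second brightest IFI44 probe set, at -0.37 (SE 0.35), whose HR7 pools reached 6.68 and whose LR7 pools began at 6.71. Among all 24016 probe sets 4.59% were higher and 3.56% lower in HR7 without overlap, and nothing is read from the 1 higher and 3 lower of the members.

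The other antiviral genes gave -0.34 for the brightest IFI44 probe set, -0.23 for IFI44L, -0.23 for MX2, 0.28 for IFIT2 and 0.07 for ISG15, all with overlap of the pools. CXCL10 was at 0.04 (SE 0.33), and its 3 HR7 pools fell inside the range of the LR7 pools. Without pool 3 of LR7, HR7 minus LR7 was -0.73 for IFI6, -0.44 for MX1 and 0.61 for RSAD2, while it was -0.08 for IFI44 and 0.37 for CXCL10.

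On day 3 no antiviral gene separated HR3 from LR3 by its brightest probe set. The differences ran from -0.19 for IFIT2 to 0.55 for IFI44, with 4 genes higher and 4 lower in HR3. The dimmest IFI44 probe set was higher in HR3 without overlap (0.56, SE 0.27) and no member was lower in this way, where 5.63% of all probe sets were higher and 4.61% lower. CXCL10 was 1.69-fold lower in HR3 than in LR3 (-0.76, SE 0.33), but pool 1 of HR3, at 8.64, lay above pool 1 of LR3, at 8.50. Without that LR3 pool the difference was -1.08, and without pool 3 of LR3 it was -0.45.

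**Figure D4:**
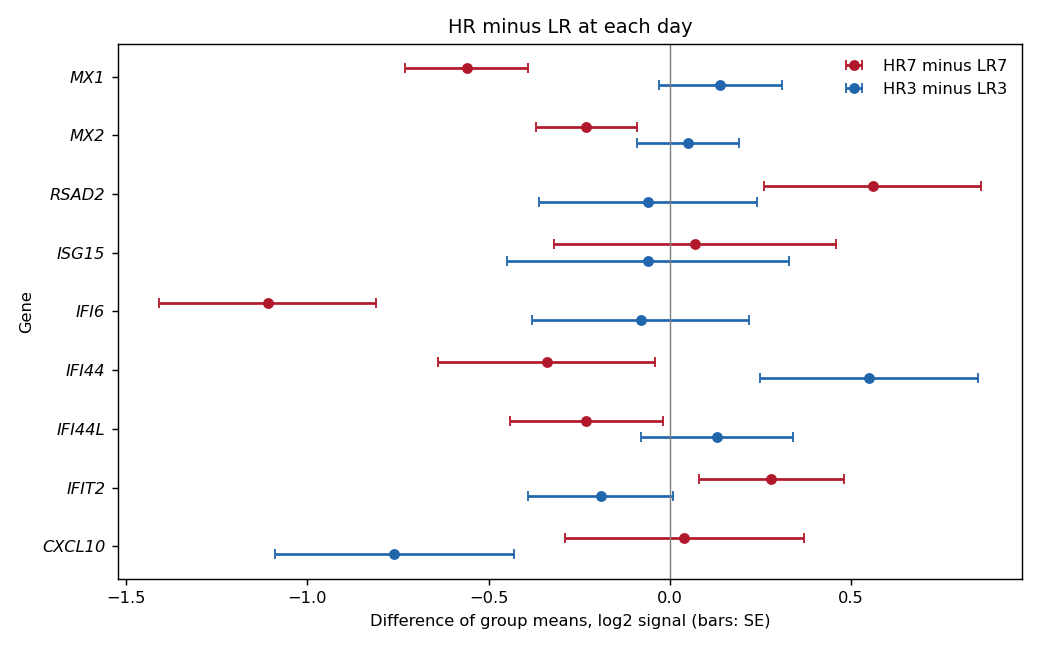
HR minus LR in log2 signal (horizontal axis) for the 9 genes, on day 7 (HR7 minus LR7) and on day 3 (HR3 minus LR3); points are differences of means of 3 pools, bars the SE. On day 7 IFI6 (-1.11) and MX1 (-0.56) lie to the left and RSAD2 (0.56) to the right of 0, and on day 3 CXCL10 lies at -0.76.

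The difference between the day changes of HR and LR was -1.03 for IFI6 (SE 0.42), -0.89 for the brightest IFI44 probe set (SE 0.43), -0.70 for MX1 (SE 0.24), 0.62 for RSAD2 (SE 0.42) and 0.80 for CXCL10 (SE 0.46), each as HR minus LR. With 1 pool left out these values reached -0.65 for IFI6 (without pool 3 of LR7), -0.55 for IFI44 (without pool 1 of LR3), 0.31 for RSAD2 (without pool 2 of LR3) and 0.48 for CXCL10 (without pool 2 of LR7), and with the dap covariate RSAD2 was at 0.00. Over all probe sets tested, 0 passed in this contrast at an adjusted p under 0.05 in limma, with 286 at an unadjusted p under 0.05 and 0 in an ordinary linear model after adjustment. Between HR7 and LR7 5 of 7339 passed, or 0.0681%, all higher in HR7. With the pool number as a block 3 passed.

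The rest of the interferon pathway was followed through 7 lists with 101 genes on the array, of which 50 could be tested. Rose and fell below mean an adjusted p under 0.05 by limma over all 7339 tested probe sets. Over both classes 15 of these 50 genes rose and 15 fell on day 7, so 60% passed, near the 65.9% of all tested probe sets. Of all tested probe sets 31.1% rose and 34.8% fell. In HR 12 of the 50 rose and 7 fell, against 20.7% and 20.8% of all (41.5% together). In LR 7 rose and 13 fell, against 22.7% and 22.0% of all (44.7% together). None passed between HR7 and LR7, between HR3 and LR3 or in the interaction. The changes below are day 7 minus day 3 over both classes, in log2 signal.

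Of the ligands, IFNB1 was listed at 0 on 7 arrays, among them all 6 of LR. IFNG averaged 4.69 ± 0.52 in HR7, 4.30 ± 0.76 in LR7, 3.89 ± 1.22 in HR3 and 4.12 ± 0.29 in LR3. IFNAC, an interferon alpha, averaged 6.01 ± 0.28 in HR7, 5.89 ± 0.33 in LR7, 6.14 ± 0.29 in HR3 and 6.30 ± 0.17 in LR3. All 3 were dimmer than the median of every array and were not tested.

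Among receptors and signal carriers, IFNAR2 changed by -0.22 (SE 0.13, adjusted p = 0.147) and IFNAR1, too dim to test, by 0.31. IFNGR2, a chain of the interferon gamma receptor, fell by 0.44 (adjusted p = 0.0069). STAT2 rose by 0.38 (adjusted p = 0.00463), and averaged 7.67 ± 0.05 in HR7, 7.57 ± 0.14 in LR7, 7.26 ± 0.10 in HR3 and 7.22 ± 0.19 in LR3. IRF9, its partner, changed by 0.15 (adjusted p = 0.412). PTPN1, a phosphatase that acts on JAK kinases, rose by 1.19 (adjusted p = 4.22e-05), while SOCS2, a feedback inhibitor, fell by 0.79 (adjusted p = 0.000307) and PTPRC, the leukocyte phosphatase CD45, fell by 0.36 (adjusted p = 0.0198). In all, 2 of 7 tested genes of this list rose and 3 fell, and 1 of those that fell was tested only through day 3 groups. IRF7, which drives interferon transcription, varied too little to be tested and differed by 0.29. IRF8, a factor of myeloid and lymphoid cells, fell by 0.86 (adjusted p = 0.000282). IRF1 and CXCL9 were not analysed here.

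In the list of sensors and their adaptors, 3 of 5 tested genes rose and 2 fell. Among these, 1 that rose was tested only through day 7 groups and 1 that fell only through day 3 groups. MAVS, the adaptor of cytosolic RNA sensing, rose by 0.52 (adjusted p = 0.00124), DHX58, a regulator of those sensors, by 0.49 (adjusted p = 0.00197) and MYD88 by 0.33 (adjusted p = 0.00942). IKBKE, a kinase upstream of IRF3, fell by 0.65 (adjusted p = 0.00677), and UNC93B1, which carries Toll-like receptors to endosomes, fell by 0.39 (adjusted p = 0.00194).

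The genes that attach ISG15 to proteins gave 1 of 3 tested that rose. UBA7, the activating enzyme, rose by 0.77 (SE 0.20, adjusted p = 0.00614), with means of 7.97 ± 0.41 in HR7, 8.09 ± 0.23 in LR7, 7.07 ± 0.41 in HR3 and 7.44 ± 0.52 in LR3. The conjugating enzyme UBE2L6 changed by -0.08 (adjusted p = 0.734) and USP18, which removes ISG15, by 0.21 (adjusted p = 0.23). HERC6, a ligase of this family in the mouse, was below the filter and differed by 0.90, with means of 6.18 in HR7, 6.28 in LR7, 5.48 in HR3 and 5.19 in LR3. HERC5, of the same list and also not tested, did not share this difference. It averaged 6.50 in HR7, 6.44 in LR7, 6.33 in HR3 and 6.87 in LR3.

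Of 16 other antiviral effectors tested, 6 rose and 2 fell. IFI27, a relative of IFI6, had signals of 9.94, 9.76 and 10.04 in HR7, 8.87, 10.06 and 11.27 in LR7, 7.72, 7.94 and 7.09 in HR3, and 6.45, 8.35 and 7.52 in LR3. The days did not overlap in either class, and within LR the pools differed widely. IFI27 rose 5.57-fold, or by 2.48 (SE 0.38, adjusted p = 0.000254), more than any member. LGALS9, a galectin, rose by 0.82 (adjusted p = 0.00018), TDRD7 by 0.53 (adjusted p = 0.000516) and EPSTI1 by 0.48 (adjusted p = 0.0105). XAF1 and PARP14 rose by 0.36 and 0.29 (adjusted p = 0.0404 and 0.0367), and with the pool number as a block PARP14 did not pass (adjusted p = 0.0524). TRIM38 fell by 0.45 (adjusted p = 0.00523) and SHISA5 by 0.33 (adjusted p = 0.0128).

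Of 19 tested genes known for induction by interferon gamma, 8 fell and 3 rose on day 7. Among these, 1 that fell was tested only through day 3 groups and 1 that rose only through day 7 groups. Those that fell were mainly genes of MHC class II: BOLA-DQA2 by 1.28 (adjusted p = 0.037), BOLA-DMA by 1.05 (adjusted p = 0.000252), BOLA-DMB by 1.04 (adjusted p = 6.53e-05), BOLA-DRA by 1.01 (adjusted p = 0.000131), BOLA-DQA1 by 0.98 and BOLA-DRB3 by 0.85. GBP5 fell by 1.09 (adjusted p = 0.0285). GBP4 rose by 1.05 (adjusted p = 0.00023), as did CASP1 and FAS, each by 0.39. BOLA class II genes are alike in sequence, and their probe sets may share signal.

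CXCL11, which lies next to CXCL10 in the genome and shares its receptor, was too dim to be tested. Its signals were 4.82, 3.42 and 3.89 in HR7, 3.79, 2.64 and 5.42 in LR7, 4.96, 4.51 and 5.24 in HR3, and 4.94, 5.39 and 6.52 in LR3. The means were lower on day 7, with a difference of -1.26, but the pools overlapped in both classes. The receptor CXCR3 averaged 5.04 ± 0.47 in HR7, 5.29 ± 0.17 in LR7, 5.24 ± 0.31 in HR3 and 5.35 ± 0.23 in LR3, also below the filter.

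**Figure D5:**
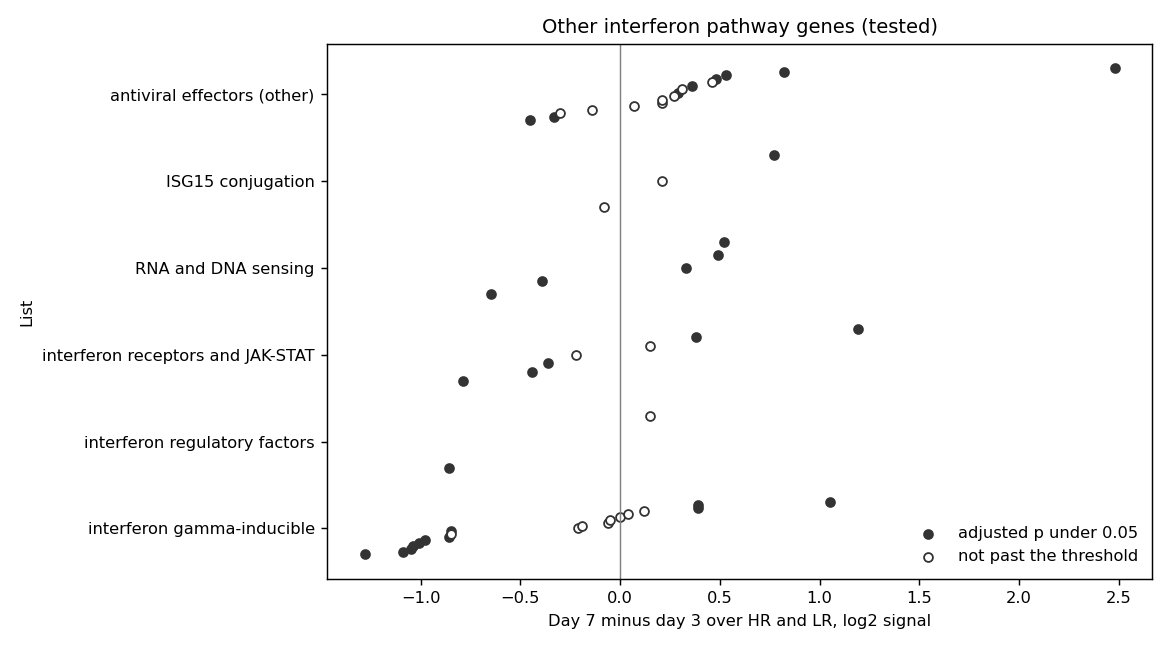
Day 7 minus day 3 over HR and LR in log2 signal (horizontal axis) for the tested genes of 6 interferon pathway lists (vertical axis); each point is a gene, filled where the adjusted p was under 0.05, and genes of a list are spread vertically in order of their difference. IFI27 lies farthest right at 2.48, and the class II genes of the interferon gamma list lie near -1.

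CXCL10 is also a target of NF-kappaB. Of 20 other tested genes of this kind, 9 rose and 2 fell on day 7, among them the chemokines CCL2, which rose by 3.66 (adjusted p = 2.06e-05), and CXCL8, which rose by 3.20 (adjusted p = 0.000931). Of the 20, 4 were tested only through day 7 groups and 3 of these rose, CXCL8 among them. A further 1 was tested only through day 3 groups and fell, so that the counts are no support by themselves. Of the 20, 55% passed, against 65.9% of all tested probe sets. CXCL8 ran from 4.67 to 9.56 in LR3 and from 8.01 to 9.16 in LR7, so that its pools overlapped in LR. CCL5, made by T cells and NK cells, fell by 0.95 (adjusted p = 0.0105).

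Some markers of other cells also differed between the days, where 31.1% of all tested probe sets rose and 34.8% fell. The share that passed was 80% for T and NK cells and 41.7% for stroma. It was 44.4% each for macrophages with dendritic cells and for epithelium, against 65.9% of all tested probe sets. Of 10 tested markers of T and NK cells 8 fell on day 7 and 0 rose, among them CD3E by 0.72 (adjusted p = 0.0179) and CD2 by 0.80 (adjusted p = 0.000888). The summed linear signal of all 19 such markers ran from 1474 to 2045 in HR7 and 1493 to 2374 in LR7, against 2620 to 2919 in HR3 and 2554 to 3408 in LR3, and GNLY was listed at 0 on 1 array. Of the 10, 7 had met the condition on low values only through day 3 groups, where they were high, and 5 of these fell, so that the count is no support by itself; the other 3 fell as well. The summed signals of the 2 days did not overlap, and the part of these cells in the lower CXCL10 and class II signals was not tested. The 3 tested neutrophil markers, S100A8, S100A9 and S100A12, rose, by 3.87, 1.73 and 4.15, and 1 of the 3 was tested only through day 7 groups. Over 11 such markers the summed signal was 23390 to 29455 in HR7 and 18870 to 22369 in LR7. On day 3 it was 16362 to 16639 in HR3 and 14877 to 16637 in LR3. Most of this sum was LTF, with group means of 13.88 to 13.99, so that its rise mostly repeats the S100 genes. Among the dim, untested markers MMP9 averaged 5.14 in HR7 and 5.29 in LR7, against 2.97 in HR3 and 3.98 in LR3. ELANE averaged 4.09 and 4.10 against 4.09 and 4.15, and CAMP 1.88 and 2.67 against 3.06 and 2.81. Of 12 tested stromal markers 5 fell and 0 rose. Among the 12, 2 were tested only through day 3 groups, and 1 of these fell. Sums over 14 stromal markers were 11253 to 22496 in HR7, 9125 to 13567 in LR7, 21319 to 26282 in HR3 and 11495 to 19985 in LR3. Of 9 tested markers of macrophages and dendritic cells 3 rose and 1 fell, and the part of all these cells in the antiviral signals was not tested. The epithelial markers gave 2 that rose and 2 that fell of 9 tested, with sums of 38077 to 45024 in HR7, 32768 to 38095 in LR7, 35000 to 39829 in HR3 and 34545 to 36111 in LR3. Between HR and LR no tested marker of these 5 lists passed. All 3 tested neutrophil markers were higher in HR7 than in LR7 (median difference 1.07) and lower in HR3 than in LR3 (-0.75), and all 12 tested stromal markers were higher in HR3 than in LR3 (median difference 0.61), and their part in the HR minus LR differences of the members was not tested.

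As a description of which genes ran most like them, CXCL10, MX1 and ISG15 were each correlated over the 12 arrays with every tested gene of 1 symbol. The 12 arrays form 2 sets by day, so that these values mostly restate the day difference. The 6 genes closest to CXCL10 were MKS1 (Pearson r = 0.972), BEX5, CCDC112, BBS2, TMCO3 and JUND (0.953). Closest to MX1 were PAPSS1 (0.892), LOC100298356, CA8, MCFD2, STX5 and SYAP1 (0.871), and to ISG15 COX8B (0.963), COX11, MPC1, SLC17A9, COX15 and IFI44L (0.955). With the group means removed, which leaves only the differences between pools of a group, the list for ISG15 was HSD11B2 (0.933), COX11, IFI44 (0.902), IFI44L (0.896), EVA1B and MPP1 (0.877). None of the other tested members was then among the 6 closest to MX1, which were TCF7 (0.948), CLIP2, PRDX5, MRPL24, LAMB3 and SMYD2 (0.88), nor among those of CXCL10, which were TMEM45A (0.952), MRPL24, DHRS12, HSF2BP, FAM98A and MITD1 (0.924). MX2 and IFIT2 were below the filter and could not appear in any of these lists.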

How the data were processed

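RNA pools of endometrial brush samples were hybridized to 12 Affymetrix GeneChip Bovine Genome Arrays, 3 for each of HR7, LR7, HR3 and LR3. The deposited values are log2 signals per probe set, calculated by the authors with PLIER in Affymetrix Expression Console; scans had been read out with GCOS 1.1.1 using global scaling. They have 2 decimals, run from 0 to 14.07 and were used as deposited. Of 24128 entries, 112 were controls. Gene names came from the GEO platform annotation, which gave 1 symbol to 13292 of 24016 probe sets, several to 86 and none to 10638. Neighbouring genes were read from NCBI RefSeq, assembly ARS-UCD2.0.

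Probe sets were tested when their signals had an SD of 0.2 or more across all arrays, a limit taken from the study's methods, and when they lay above the array median on every array of at least 1 group, in place of the present calls, which were not used here. Both conditions left 7339, and 8 of the 12 member probe sets. MX2, IFIT2 and 2 probe sets of IFI44 did not pass, and 4 of the 8 (2 of IFI44, IFI44L and RSAD2) passed only through day 7 groups. limma 3.58.1 in R 4.3.3 fitted 1 mean per group to all 12 arrays, with Benjamini-Hochberg adjustment within each comparison and a threshold of 0.05. SEs are those of limma, or of the ordinary linear model for probe sets below the filter. Both rest on 1 spread per probe set, shared by all 4 groups. The median SD of the member probe sets was 0.12 in HR7, 0.40 in LR7, 0.23 in HR3 and 0.49 in LR3, so that the SEs do not show the wider spread of the LR pools. The study itself used a mixed model in SAS. The number of arrays limits the precision. Tables and figures were made in Python 3.11.15 with pandas 2.3.3, numpy 2.4.6 and matplotlib 3.10.9.

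The members, and the gene lists, were chosen with earlier results of these data known. The lists were other antiviral effectors, ISG15 conjugation, RNA and DNA sensing, receptors and JAK-STAT, interferon regulatory factors, ligands, genes inducible by interferon gamma or NF-kappaB, and cell type markers, with 257 of 391 entries matched by symbol or Entrez ID. Genes named from the interferon lists are, in each comparison, up to 4 in each direction with the largest change among those past the threshold, and a fixed set of ligands, receptors and factors. Genes beyond these, such as XAF1, PARP14, BOLA-DRB3, HERC5, HERC6, CXCR3 and those of the NF-kappaB and marker lists, were named after their values were seen. A list gene was read from its brightest probe set. Lists of endothelium, B and plasma cells, plasmacytoid dendritic cells and red blood cells had 1, 3, 2 and 1 tested genes, of which 1 fell, 1 rose, 1 fell and 0 passed over both classes.

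The titles number the pools 1 to 3 in every group. Residuals of pools of the same number correlated at 0.198, 0.211 and 0.463 between LR7 and LR3 and at 0.136, 0.147 and 0.445 between HR7 and LR7, but at -0.0822, -0.0302 and -0.47 between HR3 and LR3 and at 0.118, 0.00266 and -0.0605 between HR7 and HR3, so that the number was used as a block in an alternative. Further alternatives were no filter on low values, a stricter one, no limit on the SD, quantile normalization, centring on array medians, weighting of arrays, a variance trend with intensity, fits restricted to the compared groups, an ordinary linear model, adding 16 to the signal, the mean over the probe sets of a gene and leaving out each pool. The dap covariate and the removal of 2 arrays were chosen after seeing the data.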

Additional observations from a re-analysis of the deposited data

How the results depend on the processing

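The signs of the day 7 minus day 3 differences over both classes held for all 12 member probe sets under every alternative listed among the methods apart from those chosen after seeing the data, which are given in the report. ISG15 ran from 1.52 to 1.93 and CXCL10 from -2.11 to -1.78. HR7 minus LR7 changed sign in some alternatives for ISG15 and CXCL10 alone. HR3 minus LR3 did so for MX2, ISG15, 2 probe sets of IFI44, IFI44L, IFI6 and RSAD2, and the interaction for ISG15. The LR day difference of IFI6, 0.80, ran from 0.41 without LR7 pool 3 to 1.12 without LR7 pool 1. Quantile normalization and centring moved the median day difference of the 7339 tested probe sets to -0.07 and -0.05, against -0.08 as deposited. Signals near or below the array median have the least support: those of MX2, IFIT2, CXCL11 and the ligands on all arrays, of IFI44, IFI44L and RSAD2 on part or all of the day 3 arrays, and of CXCL10 on day 7, so that the folds of these genes are less sure than those of MX1, ISG15 and IFI6.

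Counts of probe sets past the threshold were small and unstable between HR and LR. For HR7 minus LR7 (5) they were 2 without a filter on low values, 0 with the stricter filter, 3 with only the compared groups, 8 with 16 added, 3 without the LR3 pool 1 and LR7 pool 3 arrays, and 2 to 9 when 1 pool was left out. For HR3 minus LR3 (0) they were 1 without the filter, 2 with array weights and 0 to 11 with 1 pool left out. For the interaction (0) they were 1 without the filter, 2 with 16 added and 0 to 2 with 1 pool left out. For HR7 minus HR3 (3045) they were 1889 to 3281 with 1 pool left out, the lowest without HR7 pool 2. For LR7 minus LR3 (3280) they were 1957 with only the compared groups, 320 with the dap covariate and 2138 to 3227 with 1 pool left out, the lowest without LR7 pool 1. The interferon pathway genes past the threshold for LR7 minus LR3 (20) numbered 11 without the filter, 4 with the dap covariate and 13 to 22 with 1 pool left out, the lowest without LR7 pool 2. In HR (19) they numbered 13 to 19. The causes were not tested. With the replicate block, HR7 minus LR7 had 3 probe sets. Among the pathway genes the block took the call from FAS (adjusted p = 0.0537) and MYD88 (0.063) in HR, from DHX58 (0.0511) in LR and from PARP14 over both classes, and it gave one to BOLA-DQA1 (0.0462) in HR and to BOLA-DQA2 (0.03) and EPSTI1 (0.0472) in LR.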
